A study of Homo sapiens with 8 samples.

Results

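TXNIP, the 4 expressed arrestin-domain genes ARRDC1, ARRDC2, ARRDC3 and ARRDC4, and MLXIP were followed in uterine leiomyosarcoma cells treated with the BRD9 inhibitor TP-472. The 6 genes were matched by symbol among the 60282 genes listed in the expression table, and all 6 were among the 14073 genes that passed the filter on low counts (at least 4 of the 8 libraries above 1 CPM, the count relative to the total of its library). The group was chosen by a rule set with the TP-472 minus vehicle differences of these same libraries in view, so for these 6 genes that comparison is given as a description, without a test.

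The cells were SK-UT-1, a long-established human line derived from a leiomyosarcoma of the uterus, and all 8 libraries came from this line. The vehicle group (n = 4) received DMSO, and the TP-472 group (n = 4) received 5 µM TP-472, an inhibitor of the bromodomain protein BRD9, for 48 h. The labels name no genetic change in either group, and they number the replicates without saying whether they came from separate cultures, while the study's methods speak of biological replicates for its experiments in general. The p-values measure the spread between these libraries. The 8 libraries held between 32574716 and 38545695 estimated counts.

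The smooth muscle and uterine markers were only partly present in these cells. The intermediate filament gene VIM was the most abundant of the 13 markers, ACTA2 (smooth muscle actin) stood at 160 ± 16.7 CPM (SD, n = 4) in vehicle, and the muscle filament gene DES at 3.25 ± 0.203 CPM. The contractile gene MYH11, the muscle co-activator gene MYOCD, the actin gene ACTG2 and the hormone receptor genes ESR1 and PGR did not pass the filter. Markers of epithelial, blood, endothelial and liver cells summed to between 24.3 and 38.6 CPM per library over 15 genes, of which 4 passed the filter (KRT8, KRT18, KRT19 and CD68). KRT18 was the most abundant of them over all libraries, through its level with TP-472 (15.6 ± 1.47 CPM). In vehicle, KRT19 (8.88 ± 1.78 CPM), CD68 (7.53 ± 0.573 CPM) and KRT18 (7.39 ± 0.871 CPM) did not differ beyond their spread. CD3E and HBB had 0 counts in all 8 libraries. Some markers moved with the treatment. DES fell by 2.36 on the log2 scale (SE 0.223, adjusted p = 0.000189), KRT18 rose by 1.08 (adjusted p = 0.000726) and KRT19 fell by 0.85 (adjusted p = 0.0151), by edgeR's test adjusted over all genes. The 13 muscle and uterine markers summed to 2687, 2629, 4069 and 2691 CPM in vehicle replicates 1 to 4, the third being far above the others, and to between 2228 and 2358 CPM with TP-472. VIM, a general mesenchymal gene that did not pass the test (-0.41, adjusted p = 0.0983), made up most of these sums, with 2248, 2149, 3546 and 2210 CPM in vehicle and between 1850 and 1985 CPM with TP-472. Without vehicle replicate 3, VIM stood at -0.21 (adjusted p = 0.0370), under the fold limit. Of the 8 markers tested, 3 fell (DES, TAGLN at -0.67 and LMOD1 at -1.84) and 0 rose, against 14.9% and 12.0% of all genes, and 4 fell without vehicle replicate 3. The 15 markers of other cells summed to between 24.3 and 30.9 CPM in vehicle and between 30.0 and 38.6 CPM with TP-472. The part of these shifts in the results that follow was not tested.

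TXNIP and the ARRDC proteins are the alpha-arrestins, membrane adaptors that share the arrestin fold and, through PPxY motifs, bring NEDD4-family ubiquitin ligases to receptors, transporters and channels that are to be internalized. TXNIP also binds thioredoxin and lowers glucose uptake by driving glucose transporters off the cell surface. Its transcription follows the sugar supply: MondoA, the product of MLXIP, pairs with MLX, senses glucose 6-phosphate and binds carbohydrate-response elements, of which the best known are in the promoters of TXNIP and ARRDC4.

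The promoters of TXNIP and ARRDC4 are shown because these were the genes of the group with the large differences, and the promoter of ARRDC3 because this was the most abundant alpha-arrestin and carried neither of the E-box motifs searched. Each sequence is the stretch of 250 bases ending just before an annotated RefSeq transcript start (GRCh38.p14), written in the direction of the gene. TXNIP lies on the minus strand (chr1:145996580-145996829), ARRDC4 on the plus strand (chr15:97960453-97960702) and ARRDC3 on the minus strand (chr5:91383318-91383567). Capitals mark matches to any of 5 motifs, searched on both strands: the E-box CACGTG, a pair of CACGNG separated by 5 bases (a spacing like that of carbohydrate-response elements), the CCAAT box (CCAAT, or ATTGG on the other strand), the TATA box TATAAA, and a glucocorticoid element with GNACA and TGTNC separated by 3 bases. An E-box can lie inside the paired motif.
TXNIP: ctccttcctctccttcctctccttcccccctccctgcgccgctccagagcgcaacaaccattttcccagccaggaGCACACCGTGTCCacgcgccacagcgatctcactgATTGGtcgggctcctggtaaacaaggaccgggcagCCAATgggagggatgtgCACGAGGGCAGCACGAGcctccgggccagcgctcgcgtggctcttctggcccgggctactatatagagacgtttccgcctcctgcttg
ARRDC4: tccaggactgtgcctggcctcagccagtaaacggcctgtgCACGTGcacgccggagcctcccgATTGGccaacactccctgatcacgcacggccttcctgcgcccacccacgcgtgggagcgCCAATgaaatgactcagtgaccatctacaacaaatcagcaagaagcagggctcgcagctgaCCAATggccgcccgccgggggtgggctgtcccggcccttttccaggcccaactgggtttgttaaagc
ARRDC3: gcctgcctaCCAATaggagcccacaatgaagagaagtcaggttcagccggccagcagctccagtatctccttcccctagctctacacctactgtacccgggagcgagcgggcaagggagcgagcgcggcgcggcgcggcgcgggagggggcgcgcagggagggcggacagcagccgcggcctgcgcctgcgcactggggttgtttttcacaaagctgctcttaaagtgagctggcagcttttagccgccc

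In the TXNIP promoter the capitals read, from the left, a glucocorticoid element that begins 175 bases before the start, CCAAT boxes at 140 and 105 bases, and the paired motif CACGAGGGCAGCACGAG at 88 bases. The paired motif occurred in 20 of the 35116 promoter windows of 300 bases that were searched (0.057%), and the glucocorticoid element in 0.39%. The ARRDC4 promoter held the E-box 210 bases before its start, a motif found in 7.26% of windows, and CCAAT boxes at 187, 128 and 67 bases. Among the 6 genes, only TXNIP carried the paired motif and only ARRDC4 the E-box. ARRDC3 carried a single match, a CCAAT box at 241 bases. A CCAAT box lay in at least 1 window of all 6 genes and in 34.6% of windows overall. TATAAA, found in 11.5% of windows, was met among the 6 genes only in the second ARRDC2 window, 30 bases before the start. These matches describe letters in a window and not sites shown to be bound.

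One library stood apart from the others. On the first principal component (65.8% of the variance), vehicle replicate 3 lay at -94.0, the other vehicle libraries between -36.4 and -13.5, and the TP-472 libraries between 37.0 and 43.4. Its median Spearman correlation with the libraries of its own group was 0.914, against 0.988 to 0.997 for the 7 others. Relative to vehicle replicates 1, 2 and 4, its genes of lowest GC content (first of 10 equal classes) had a median difference of -0.83 on the log2 scale and those of highest GC content one of 1.13. The cause of this was not tested, and results are given with and without vehicle replicate 3.

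TXNIP (ENSG00000265972.6) lies on the minus strand of chromosome 1 at chr1:145992435-145996600 (GRCh38). Its level was 68.6, 84.6, 51.8 and 81.4 CPM in vehicle replicates 1 to 4 and 179, 185, 181 and 182 CPM in TP-472 replicates 1 to 4. Every TP-472 library exceeded every vehicle library by a wide margin, and the TP-472 libraries lay close together. The means were 71.6 ± 14.9 CPM in vehicle and 181.8 ± 2.69 CPM with TP-472 (SD, n = 4 each). TXNIP was thus 2.54-fold higher, or 1.34 on the log2 scale (SE 0.154). Without vehicle replicate 3, the lowest of the vehicle libraries, it was 1.21 (SE 0.077). CPM values are shares of a library, so a change in how many cells express a gene and a change in its RNA per cell cannot be told apart.

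ARRDC4 (ENSG00000140450.9, plus strand, chr15:97960698-97973838) is the alpha-arrestin closest to TXNIP in its known control by MondoA and, like it, lowers glucose uptake. It was low in vehicle, at 4.41, 4.48, 1.68 and 4.75 CPM, and reached 27.6, 28.5, 28.0 and 33.5 CPM with TP-472. The groups did not overlap, and the lowest TP-472 library was several times the highest vehicle library. Behind these levels stood 58 to 169 counts in the vehicle libraries and 1009 to 1268 counts in the TP-472 libraries, so the low vehicle values were not at the counting limit. The mean went from 3.83 ± 1.44 to 29.4 ± 2.75 CPM, a log2 fold change of 2.94 (SE 0.296), or 7.67-fold, and of 2.69 (SE 0.099) without vehicle replicate 3.

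The other alpha-arrestins did not show such differences. ARRDC3 (ENSG00000113369.9, minus strand, chr5:91368724-91383359), known as an adaptor for adrenergic receptors and integrins, stood at 342, 462, 176 and 428 CPM in vehicle and at 386, 397, 403 and 383 CPM with TP-472. The TP-472 libraries fell within the range of the vehicle libraries. Its log2 fold change was 0.15 (SE 0.256) and became -0.07 (SE 0.096) without vehicle replicate 3, so that even its sign was set by that library. ARRDC3-AS1, which overlaps it on the opposite strand, had only 27 to 57 counts per library.

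ARRDC2 (ENSG00000105643.10, plus strand, chr19:18001132-18014102), whose cargo is less well known, measured 12.6, 12.6, 19.7 and 13.7 CPM in vehicle and 16.8, 18.5, 16.9 and 14.2 CPM with TP-472. Vehicle replicate 3 was the highest of all 8 libraries, and the groups overlapped through it alone. The log2 fold change was 0.18 (SE 0.173) with it and 0.35 (SE 0.099) without it.

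ARRDC1 (ENSG00000197070.14, plus strand, chr9:137605654-137615360), which recruits the ESCRT protein TSG101 to the plasma membrane to bud small vesicles, had its lowest values with TP-472. It stood at 14.2, 16.2, 37.3 and 17.5 CPM in vehicle and at 13.7, 14.0, 13.7 and 11.7 CPM with TP-472. No TP-472 library reached the lowest vehicle library, but the gap was small except to vehicle replicate 3. The log2 fold change was -0.68 (SE 0.291) with all libraries and -0.27 (SE 0.099) without vehicle replicate 3. The gene overlaps ARRDC1-AS1 on the opposite strand, which had 381 to 698 counts per library. The study's methods call the libraries strand-specific, whereas the labels name a kit without saying so, so reads of the pair may have been shared.

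MLXIP (ENSG00000175727.14, plus strand, chr12:122078722-122147347), which encodes MondoA itself, was the most uneven gene of the group among the vehicle libraries. It stood at 50.1, 24.1, 134 and 25.6 CPM in vehicle and at 28.1, 24.6, 21.9 and 30.0 CPM with TP-472. Vehicle replicate 3 had 4.03 times the mean of the other vehicle libraries, and vehicle replicates 2 and 4 lay within the range of the TP-472 libraries. The log2 fold change of -1.16 (SE 0.508) shrank to -0.35 (SE 0.236) without vehicle replicate 3.

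**Figure D1:**
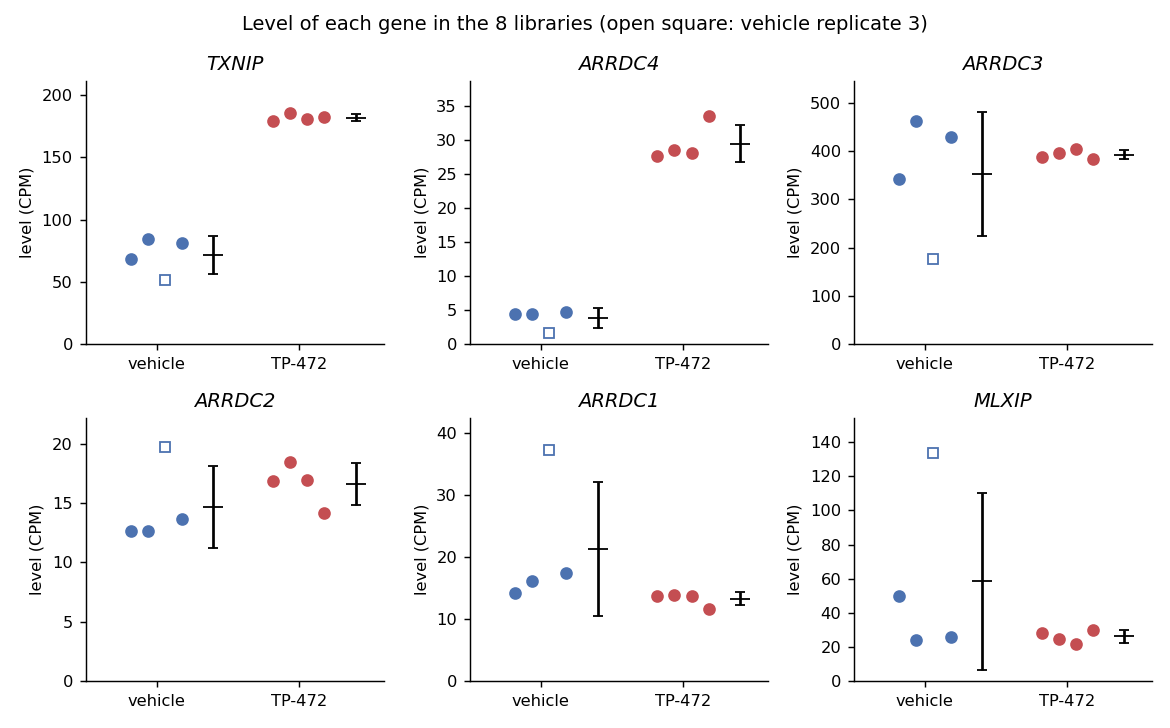
Level in TMM-scaled CPM (linear axes from 0) of the 6 genes in each library, with vehicle in blue and TP-472 in red. Bars beside the points show mean ± SD (n = 4 each), and the open square is vehicle replicate 3. TXNIP (71.6 to 181.8 CPM) and ARRDC4 (3.83 to 29.4 CPM) separate clearly between the groups, whereas vehicle replicate 3 is the lowest library for ARRDC3 and the highest for ARRDC1, ARRDC2 and MLXIP.

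A gene was called where edgeR gave an adjusted p under 0.05 and a change over 1.5-fold. In the fit over all genes, 2 of the 6 (TXNIP and ARRDC4) met these limits upward and 0 downward, against 12.0% and 14.9% of the 14073 genes tested. The groups did not overlap for 3 of 6 genes (TXNIP, ARRDC4 and ARRDC1), against 45.4% of all genes. Without vehicle replicate 3, the counts were again 2 and 0, against 12.4% higher and 13.5% lower among 14217 genes. The median log2 fold change of the 6 genes was 0.17, and that of all genes -0.03. Since the comparison entered the choice of the genes, these counts are no test of them and nothing is read from them.

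Per kilobase of the longest annotated transcript, ARRDC3 was the most abundant of the 6 in vehicle, at 84.1 ± 30.5 CPM per kb (SD, n = 4). TXNIP followed at 24.5 ± 5.08 CPM per kb and overlapped with ARRDC1, at 13.4 ± 6.79 CPM per kb, through vehicle replicate 3 alone. Without that library they stood at 26.7 ± 2.88 and 10.1 ± 1.05 CPM per kb (n = 3). MLXIP at 6.93 ± 6.14 CPM per kb did not differ beyond its spread from ARRDC1 or from ARRDC2, at 5.80 ± 1.35 CPM per kb, whereas all ARRDC1 values (8.94 and above) exceeded all ARRDC2 values (7.81 and below). With that library left out, MLXIP (3.94 ± 1.73 CPM per kb) came after ARRDC2 (5.13 ± 0.236 CPM per kb), again within its spread. ARRDC4 was last at 0.940 ± 0.354 CPM per kb, and at 1.12 ± 0.044 CPM per kb in vehicle replicates 1, 2 and 4. With TP-472 the order began in the same way, with ARRDC3 at 93.6 ± 2.23 and TXNIP at 62.1 ± 0.919 CPM per kb. ARRDC1 at 8.36 ± 0.670, ARRDC4 at 7.22 ± 0.675 and ARRDC2 at 6.56 ± 0.706 CPM per kb formed a middle group in which ARRDC4 was within the spread of ARRDC2, and MLXIP was last at 3.10 ± 0.432 CPM per kb. ARRDC4 thus stood last in vehicle and beside ARRDC1 and ARRDC2 with TP-472. With the summed length of all exons in place of the longest transcript, ARRDC4 (7.22 CPM per kb with TP-472) stood above ARRDC2 (3.58) and ARRDC1 (3.47), so the order inside the middle group depends on which length is used. In vehicle, the summed length gave means of 5.57 CPM per kb for ARRDC1 and 3.16 for ARRDC2. Their values then overlapped, through ARRDC2 in vehicle replicate 3.

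The ratios of ARRDC3 and of ARRDC4 to TXNIP did not overlap between the groups. Ratios among the other alpha-arrestin genes are not given. There were 4.99, 5.46, 3.40 and 5.27 ARRDC3 counts for each TXNIP count in vehicle and 2.16, 2.14, 2.23 and 2.10 with TP-472. For each TXNIP count there were 0.064, 0.053, 0.032 and 0.058 ARRDC4 counts in vehicle and 0.155, 0.154, 0.155 and 0.184 with TP-472. ARRDC4 was therefore higher relative to TXNIP as well as in itself. The summed level of TXNIP and the ARRDC genes was 442, 580, 287 and 546 CPM in vehicle and between 624 and 643 CPM with TP-472.

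The position of the 6 genes in vehicle replicate 3 followed their GC content in direction. TXNIP (43.9% GC), ARRDC4 (43.4%) and ARRDC3 (37.6%) were lower in that library than in the other vehicle libraries, by -0.59, -1.41 and -1.21 on the log2 scale. ARRDC1 (64.6% GC), ARRDC2 (62.2%) and MLXIP (57.9%) were higher in it, by 1.23, 0.61 and 2.09. The median of all genes in the same GC class was -0.32 for TXNIP and ARRDC4, -0.83 for ARRDC3, 1.13 for ARRDC1 and ARRDC2 and 0.57 for MLXIP. ARRDC1 thus lay near its class median, whereas MLXIP was far above and ARRDC4 far below theirs. Across the GC classes, the TP-472 libraries differed from vehicle replicates 1, 2 and 4 by median values between -0.13 and 0.08. TXNIP and ARRDC4 differed from those same libraries by 1.22 and 2.68.

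**Figure D2:**
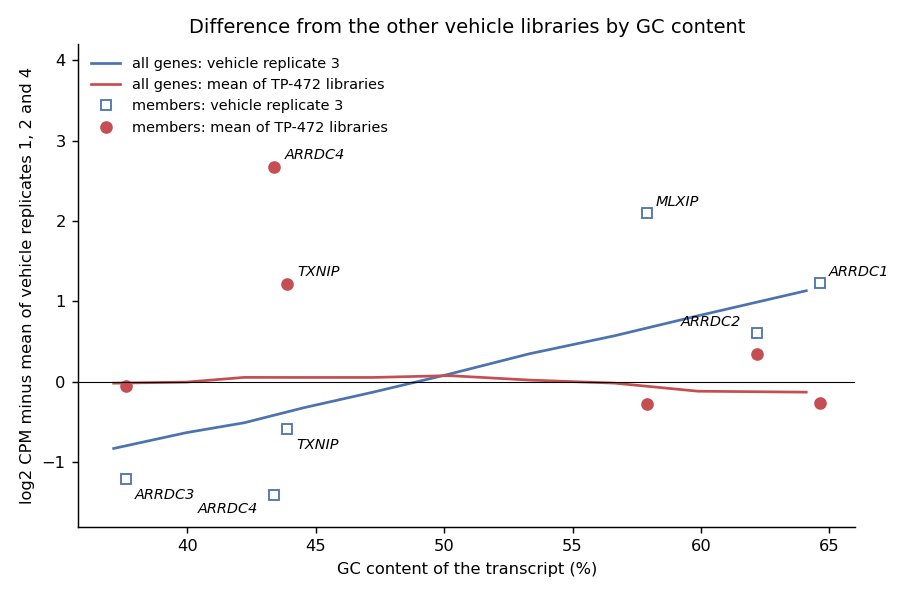
Difference in log2 CPM from the mean of vehicle replicates 1, 2 and 4 (vertical axis) against the GC content of the transcript in percent (horizontal axis). Lines join the medians of all genes in 10 GC classes and symbols are the 6 genes, in blue for vehicle replicate 3 and in red for the mean of the TP-472 libraries. The blue line climbs from -0.83 to 1.13 while the red line stays between -0.13 and 0.08, and TXNIP (1.22) and ARRDC4 (2.68) lie above the red line.

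Across 19 other ways of processing, TXNIP kept a log2 fold change between 1.17 and 1.43 and ARRDC4 between 2.65 and 3.06. ARRDC1 ranged from -0.84 to -0.14, ARRDC2 from 0.11 to 0.56 and ARRDC3 from -0.07 to 0.31. The highest value of ARRDC2, 0.56, was obtained after the GC trend of each library had been removed, which took ARRDC1 to -0.15. MLXIP ranged from -1.42 (without vehicle replicate 2) to -0.28 (GC trend removed and vehicle replicate 3 left out).

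**Figure D3:**
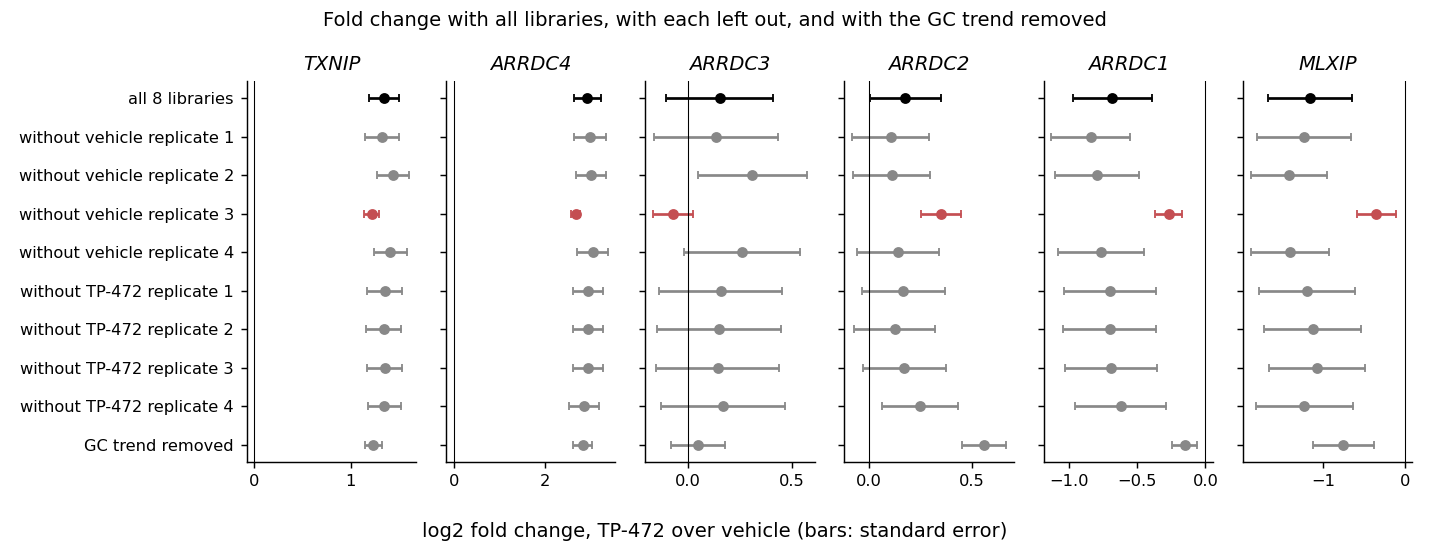
Log2 fold change of TP-472 over vehicle (horizontal axes, scaled separately for each gene, bars for the standard error) with all 8 libraries (black), with each library left out in turn, and with the GC trend removed (grey). Red marks the fit without vehicle replicate 3. TXNIP and ARRDC4 stay above 1 in every row, whereas ARRDC3 turns from 0.15 to -0.07 and MLXIP moves from -1.16 to -0.35 in the red row.

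The genes whose levels were most like each member across the 8 libraries were looked up among the 11077 tested genes that averaged 5 CPM or more. They share the libraries and the groups with the member, and the correlation of log2 CPM is a description of likeness only. For TXNIP they were PTDSS1 (r = 0.999), HAUS2 and RIOK1, and for ARRDC4 they were TEX10 (r = 0.999), FASTKD5 and BIRC3, all of which were higher with TP-472. For ARRDC3 they were SF3B1 (r = 0.998), TCEA1 and RAB11A, for ARRDC2 TUBB3 (r = 0.995), TUBB4B and HPS6, for ARRDC1 SLC2A4RG (r = 0.997), SH3GLB2 and FASTK, and for MLXIP HCFC1 (r = 0.999), RAVER1 and CNOT3. None of the 6 genes was among the 3 genes most like another, although TXNIP and ARRDC4 had r = 0.993 and ARRDC3 and MLXIP r = -0.965 over the same 8 libraries. All these correlations include vehicle replicate 3, and values without it are not given. In that library ARRDC3 stood at -1.21 and MLXIP at 2.09 on the log2 scale against the other vehicle libraries.

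The remaining genes with an arrestin fold gave 0 calls upward and 2 downward among 6 tested, against 12.0% and 14.9% of all genes. ARRB2, one of the beta-arrestins that desensitize G-protein-coupled receptors, fell by 0.63 on the log2 scale (SE 0.204, adjusted p = 0.0397), and RGP1, a partner in Golgi membrane traffic, fell by 0.60 (SE 0.132, adjusted p = 0.00892). Neither was called without vehicle replicate 3, where they stood at -0.37 and -0.48. ARRDC5 had 0 counts in all 8 libraries, which allows a level of up to 0.0778 to 0.0921 CPM per library (3 counts).

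MLX, the partner of MondoA, was 35.9, 41.3, 32.1 and 38.6 CPM in vehicle and 43.0, 47.9, 45.8 and 45.2 CPM with TP-472. The groups did not overlap, but the log2 fold change of 0.30 (SE 0.108, adjusted p = 0.0574) did not pass. MLXIPL, which encodes ChREBP, the paralogue of MondoA, was already low in vehicle (2.16, 1.55, 5.41 and 1.69 CPM) and lower still with TP-472 (0.673, 0.648, 0.472 and 0.476 CPM). It fell by 2.24 on the log2 scale (SE 0.435, adjusted p = 0.00494), and by 1.66 without vehicle replicate 3. Of the 9 genes of the MLX network tested, 3 fell and 0 rose (2 and 0 without vehicle replicate 3), against 14.9% and 12.0% of all genes. Besides MLXIPL these were MXD3 (-1.74, adjusted p = 0.000811) and MXD4 (-0.73, adjusted p = 0.0307), both MAX-binding repressors, and MXD4 was not called without vehicle replicate 3 (-0.44).

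Of 11 tested genes known to respond to carbohydrate through MondoA or ChREBP, 3 rose and 0 fell, against 12.0% and 14.9% of all genes. The median log2 fold change of the list was -0.21, and -0.015 without vehicle replicate 3. RGS16, a brake on G-protein signalling, was 0.443, 0.517, 0.318 and 0.450 CPM in vehicle and 4.61, 4.82, 3.58 and 4.54 CPM with TP-472, a rise of 3.33 on the log2 scale (SE 0.209, adjusted p = 3.78e-05). BHLHE40, a circadian repressor, rose from 10.5 ± 2.84 to 42.2 ± 3.03 CPM (2.01, adjusted p = 0.000163), and the zinc-finger gene KLF10 from 41.0 ± 5.38 to 131 ± 2.54 CPM (1.68, adjusted p = 4.37e-05). None of the lipid synthesis enzymes in the same list was called. FASN stood at 176, 73.4, 601 and 81.6 CPM in vehicle and 77.9, 67.6, 58.0 and 90.9 CPM with TP-472, with the highest value in vehicle replicate 3 (adjusted p = 0.0645). Its log2 fold change was -1.66, and -0.59 without that library. ACLY, ACACA and SCD had log2 fold changes of -0.22, -0.34 and -0.42, and ELOVL6 had 0.32, none of them past the fold limit. The groups did not overlap for ACLY and SCD, which were lower with TP-472, or for ELOVL6, which was higher. Without vehicle replicate 3, PPARGC1B was called higher as well (0.74).

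Among 9 glucose transporter genes tested, 1 rose and 3 fell, against 12.0% and 14.9% of all genes. SLC2A1, which encodes GLUT1, a transporter that TXNIP removes from the surface, was 34.4, 29.4, 47.4 and 32.5 CPM in vehicle and 53.9, 55.0, 53.5 and 52.4 CPM with TP-472. The groups did not overlap, but the log2 fold change of 0.58 (SE 0.149, adjusted p = 0.0167) was just under the fold limit, and it was called without vehicle replicate 3 (0.74). The reverse held for SLC2A3 (GLUT3), which rose from 69.1 ± 12.2 to 108 ± 2.81 CPM (0.65, adjusted p = 0.00755) but had a value of 0.52, under the fold limit, without that library. Its reads may also be shared with the near-identical SLC2A14. The less abundant SLC2A12 (-1.60, adjusted p = 0.000705), SLC2A10 (-1.14, adjusted p = 0.000797) and SLC2A11 (-0.70, adjusted p = 0.00819) fell, with or without it.

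Glucose 6-phosphate, the sugar sensed by MondoA, is made by hexokinases. HK2 went from 83.8 ± 11.4 to 126 ± 4.82 CPM with no overlap between the groups, and its log2 fold change of 0.58 (adjusted p = 0.00508) was just under the fold limit with all libraries and over it without vehicle replicate 3 (0.68). HK1 stood at 0.16 (adjusted p = 0.167). Of the 8 genes of this list that were tested, 1 rose and 2 fell, against 12.0% and 14.9% of all genes. The gene that rose was PGM2 (0.71, adjusted p = 0.0135), and among those that fell was SLC37A4, which encodes the transporter of glucose 6-phosphate into the endoplasmic reticulum (-0.64, adjusted p = 0.00223). Without vehicle replicate 3, PGM2 was not called (0.56). SLC37A4 was called in 17 of 19 alternatives, and stood at -0.40, under the fold limit, with the GC trend removed.

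In the thioredoxin system, the target of TXNIP, 5 of 18 genes rose and 0 fell, against 12.0% and 14.9% of all genes, with a median log2 fold change of 0.28. When vehicle replicate 3 was left out, 4 rose and 0 fell, with a median of 0.19. TXN itself, which encodes thioredoxin, was 172, 227, 77.0 and 227 CPM in vehicle and 261, 290, 303 and 250 CPM with TP-472. The groups did not overlap, but with the low vehicle replicate 3 the log2 fold change of 0.65 (SE 0.295, adjusted p = 0.111) did not pass, and without it the value was 0.40, under the fold limit. TXNRD1, the reductase that recharges thioredoxin, rose from 514 ± 125 to 985 ± 25.4 CPM (0.94, adjusted p = 0.00481). SRXN1, which restores overoxidized peroxiredoxins, rose by 1.09 (adjusted p = 0.000522), TXNDC17 by 0.86 (adjusted p = 0.0285), the peroxiredoxin gene PRDX4 by 0.76 (adjusted p = 0.0130) and TXNL1 by 0.60 (adjusted p = 0.0348). TXNL1 was not called without vehicle replicate 3 (0.43).

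Alpha-arrestins act through ubiquitin ligases and, in the case of ARRDC1, the ESCRT machinery. Of 9 NEDD4-family ubiquitin ligase genes, 1 rose and 0 fell, against 12.0% and 14.9% of all genes. It was SMURF2, which rose from 109 ± 17.6 to 264 ± 17.9 CPM (1.28, adjusted p = 0.000326). NEDD4 stood at 0.02 (adjusted p = 0.883) and ITCH at 0.03 (adjusted p = 0.910). Of 14 ESCRT and associated genes that ARRDC1 vesicles draw on, 0 rose and 2 fell, against 12.0% and 14.9% of all genes. Those that fell were the ESCRT-I subunit genes MVB12B (from 8.87 ± 3.35 to 4.45 ± 0.889 CPM, adjusted p = 0.0209) and MVB12A (-0.91, adjusted p = 0.0202, and -0.59 without vehicle replicate 3). TSG101, the direct partner of ARRDC1, stood at -0.16 (adjusted p = 0.360). Without vehicle replicate 3 it stood at -0.25 (adjusted p = 0.0329), under the fold limit.

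TXNIP is also known to respond to glucocorticoids, and 10 of 16 tested genes of a glucocorticoid-responsive list changed, 7 upward and 3 downward (7 and 2 without vehicle replicate 3). The 7 were not the same genes: without that library MT2A was called (0.73, adjusted p = 0.000117) and TSC22D3 was not. With all libraries MT2A was under the fold limit (0.53). Over all genes, 12.0% rose and 14.9% fell, and the list was chosen with earlier results of these data known. BIRC3, an inhibitor of apoptosis, rose by 2.46 (adjusted p = 0.000188), CRISPLD2 by 2.25 (adjusted p = 3.97e-05), the EGFR inhibitor ERRFI1 by 1.80 (adjusted p = 0.000317) and the MAP kinase phosphatase DUSP1 by 1.53 (adjusted p = 0.000158). The growth arrest gene GADD45A rose by 1.27 (adjusted p = 0.000981). KLF9, a well-known target of the receptor, fell from 85.3 ± 9.96 to 29.7 ± 2.46 CPM (-1.52, adjusted p = 8.05e-05). KLF15 fell by 1.48 (adjusted p = 0.00198), and CEBPD by 0.95 (adjusted p = 0.0410, and not called without vehicle replicate 3, at -0.51). Of the other familiar targets, SGK1 rose by 0.75 (adjusted p = 0.0131) and TSC22D3 by 0.63 (adjusted p = 0.0293, and not called without vehicle replicate 3, at 0.52). FKBP5 stood at -0.14 (adjusted p = 0.315). PER1 stood at -1.07 (adjusted p = 0.122), and at -0.26 without vehicle replicate 3. The receptor gene NR3C1 was at -0.12 (adjusted p = 0.564). Without vehicle replicate 3 it was at -0.26 (adjusted p = 0.00758), under the fold limit. Many of these genes are also known to answer to other signals.

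**Figure D4:**
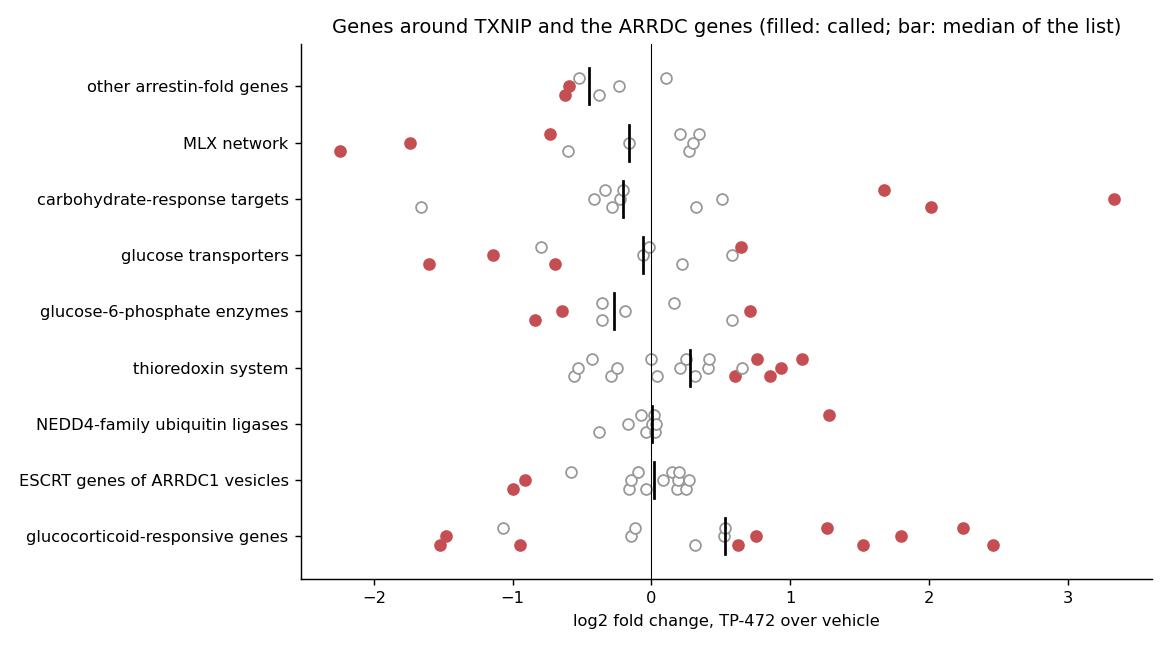
Log2 fold change of TP-472 over vehicle (horizontal axis) for every tested gene of the 9 lists of related genes (vertical axis), the 6 genes themselves excluded. Filled red points were called, open grey points were not, and black bars are list medians. Carbohydrate-response targets spread from -1.66 (FASN) to 3.33 (RGS16) around a median of -0.21 (-0.015 without vehicle replicate 3), and the thioredoxin system has called genes on the right side only.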

How the data were processed

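RNA of SK-UT-1 cells (vehicle and TP-472, n = 4 each) was analysed from a single gene table. The authors mapped reads with STAR and Salmon 1.4.0 and summed transcripts by gene with tximport (GRCh38), so the deposited values are estimated counts, neither normalized nor filtered. Whether strand was used in quantification is not given in the sources used here. Counts were rounded, scaled by TMM and tested with edgeR 4.0.16 (quasi-likelihood F test, R 4.3.3, group as the only term), with Benjamini-Hochberg adjustment over 14073 genes. Fold changes are on the log2 scale. The genes called had an adjusted p under 0.05 and a change over 1.5-fold. Levels are TMM-scaled CPM. When a library was left out, more than 1 CPM in 3 libraries was required. Coordinates, length and GC content are from GENCODE release 29 (GC for 99.3% of genes).

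The members and all gene lists were chosen with earlier results of these data known. Named are the 6 members, up to 5 called genes per list with the largest change, 13 fixed pathway genes, and the 3 genes most like each member. FASN, ACLY, ACACA, SCD, ELOVL6, PPARGC1B, FKBP5, PER1, SGK1, TSC22D3, GADD45A, KLF15, CEBPD, MT2A, the flanking genes and the markers were named after their values were seen. The values of 1 gene of a list are not reported here, although counts include it.

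Alternatives were DESeq2 1.42.0, limma-voom (limma 3.58.1), RLE factors, library totals, other filters, unrounded counts, the adjusted p alone, a replicate block, and each library left out. Removal of a GC trend, with and without vehicle replicate 3, was added after seeing the data. On simulated data of this comparison with 14073 genes, edgeR called 54 of 100 genes changed by 1 log2 unit, 97 of 100 changed by 2, and 7 of 13873 unchanged. The genes were simulated independently, without a GC trend like that of vehicle replicate 3, so these numbers may not hold for the real libraries. No library was a copy of another (lowest mean chi-square of a pair 12.8, where counting error alone gives about 1). Low genes rest on few counts, such as 11 to 18 per vehicle library for RGS16.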

Additional observations from a re-analysis of the deposited data

Results flagged for a closer look

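Within groups of 4 libraries, 5 of the 12 sets of values of the 6 genes held a library far from the other 3 by Dixon's test. In vehicle this was replicate 3, with 37.3 CPM for ARRDC1, 19.7 CPM for ARRDC2 and 1.68 CPM for ARRDC4. With TP-472 it was replicate 4, with 11.7 CPM for ARRDC1 and 33.5 CPM for ARRDC4. Chance flags about 1 in 20 groups, and over all genes tested the share was 21.3% in vehicle and 6.22% with TP-472. The cause was not tested.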

How the results depend on the processing

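TXNIP and ARRDC4 kept their direction under all 19 alternatives, as did ARRDC1, ARRDC2 and MLXIP. Of the members, chosen from this comparison, no call is read as support. DESeq2 called 2678 genes higher against 1693 with edgeR and brought MLXIP (-1.14) past the threshold; the cause was not tested. Leaving out each library in turn gave MLXIP values from -1.42 to -0.35, the first without vehicle replicate 2, where it was called, and ARRDC3 values from -0.070 to 0.31. ARRDC3 was also negative with the GC trend removed and vehicle replicate 3 left out (-0.053). The ligase genes near 0 changed sign: NEDD4 with library totals (-0.0081), with the GC trend removed (-0.18) and among the fits with a library left out (-0.011 to 0.044), and ITCH with the GC trend removed (-0.099), also without vehicle replicate 3 (-0.13), and among the fits with a library left out (-0.14 to 0.11). With each library left out, the calls over all genes numbered between 2744 (without TP-472 replicate 3) and 4322 (without vehicle replicate 2), against 3789 with all libraries. They numbered 5575 with DESeq2, 5102 with the adjusted p alone, 5090 with no low-count filter and 2672 with more than 5 CPM. Among the other named genes that were followed through the alternatives, calls were lost most often for TXNL1 (called in 8 of 19 alternatives), ARRB2 (10), MXD4 (11), RGP1 (13), MVB12A (14) and TXNDC17 (14). The genes named after their values were seen, such as CEBPD and TSC22D3, were not followed in this way. Of the 3789, 3095 were also called without vehicle replicate 3.

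Same-numbered libraries did not deviate together (r = -0.055, 0.12, -0.17 and -0.18 over genes). Deviations were taken from the group mean, which vehicle replicate 3 shifts for the vehicle group. These values therefore cannot show whether the numbers pair the samples. A replicate block gave 3055 calls and log2 fold changes of 1.37 for TXNIP, 3.02 for ARRDC4, -0.57 for ARRDC1, 0.20 for ARRDC2, 0.24 for ARRDC3 and -0.76 for MLXIP. With 4 libraries per group, a single cell line, 1 dose and 1 time, and protein not measured here, the values describe steady-state RNA in these libraries. The spread of the vehicle group limits their precision.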

Other observations

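The genes that flank the members on either side were looked at after the members' values had been seen. Of 12 neighbours that passed the filter, 3 were called, 1 higher and 2 lower, against 12.0% and 14.9% of all genes, and none of these lay beside TXNIP or ARRDC4. LUCAT1, a long noncoding RNA 54.2 kb from ARRDC3, rose from 6.43 ± 0.697 to 31.5 ± 3.75 CPM (log2 fold change 2.29, edgeR adjusted p = 2.89e-05), whereas ARRDC3 stood at 0.15. On both sides of ARRDC2, which stood at 0.18, the neighbour fell. These were the potassium channel gene KCNN1 (1.05 kb away, -1.61, adjusted p = 0.00711) and the kinase gene MAST3 (83.7 kb away, -1.66, adjusted p = 0.0168). Without vehicle replicate 3 these were -1.17 and -1.05. Beside TXNIP, POLR3GL, a subunit gene of RNA polymerase III 13.6 kb away, stood at -0.50 (adjusted p = 0.152) and was called lower without vehicle replicate 3 (-0.67). RNVU1-6, on the other side of TXNIP, stood at 0.89 (adjusted p = 0.104). LINC00923, 86.1 kb from ARRDC4, was under the fold limit (-0.52, adjusted p = 0.0179). IGF1R, 675 kb from ARRDC4 on the other side, did not pass (-0.65, adjusted p = 0.240). Without vehicle replicate 3, IGF1R stood at -0.16.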
